A study of Rattus norvegicus with 45 samples.

Results

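The synuclein genes read here were Sncb (beta-synuclein) and Sncg (gamma-synuclein), measured on rat 230 2.0 arrays in frontal cortex, hippocampus and striatum of 15 male Sprague-Dawley rats. All probe sets whose symbol in the array annotation is Sncb or Sncg were taken, which gave 2 of 14218 genes and 3 of 31099 probe sets: 1371568_at and 1369924_at for Sncb and 1398245_at for Sncg. Sncg was chosen on its log2 values by rat, which fall into a high and a low level that the 3 regions of a rat share, so its levels between rats are given as a description and are not tested. From subcutaneous minipumps implanted at 9 to 11 weeks of age, 5 rats were given risperidone (5 mg/kg/d), 5 haloperidol (0.25 mg/kg/d) and 5 vehicle (acetic acid in water), each over 21 days. Every rat gave all 3 regions, so there were 45 arrays, and replicate numbers below are rats within a treatment. All rats were male, and no untreated rats without a pump were analysed here. Values are log2 of the deposited intensity unless said otherwise. The tissue was bulk, and fewer cells of a type and less RNA per cell cannot be told apart. Sncg was read by 1 probe set whose probe sequences were not examined. A difference between rats in its transcript level and one in the sequence under its probes therefore cannot be told apart.

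Synucleins are small proteins that bind lipid membranes, and the one encoded by Sncb is concentrated in nerve terminals. Sncb is made by many forebrain neurons. Sncg is best known from sensory and motor neurons, retinal ganglion cells, adipose tissue and a class of cortical interneurons that also makes cholecystokinin, and it was first described as a transcript raised in breast cancer. Risperidone acts as an antagonist at serotonin and dopamine receptors, and haloperidol mainly at those of dopamine.

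The 250 bases before the start of each gene are shown for description only, as reference sequence that is the same for every rat and region. They were taken from RefSeq promoters of the build GRCr8, with each CG dinucleotide in capitals, and both genes were matched by symbol. The Sncb window is chr17:9851684-9851933 on the plus strand and the Sncg window is chr16:9711337-9711586 on the minus strand.
Sncb: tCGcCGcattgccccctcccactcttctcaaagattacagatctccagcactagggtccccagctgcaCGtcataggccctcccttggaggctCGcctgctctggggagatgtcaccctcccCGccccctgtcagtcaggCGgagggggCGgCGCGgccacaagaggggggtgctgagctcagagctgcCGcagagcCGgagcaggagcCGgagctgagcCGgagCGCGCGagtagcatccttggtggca
Sncg: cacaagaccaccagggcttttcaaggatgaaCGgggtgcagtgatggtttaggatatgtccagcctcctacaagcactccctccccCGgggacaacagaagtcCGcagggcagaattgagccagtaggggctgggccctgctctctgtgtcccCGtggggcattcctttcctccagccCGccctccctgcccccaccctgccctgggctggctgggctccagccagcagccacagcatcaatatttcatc
The Sncb window held 16 CG and was 67.2% G or C, and 23.8% of 33469 promoter windows of the same length held as many CG or more. The Sncg window held 5 CG and was 61.6% G or C, and 55.3% of the windows held as many or more. The median window held 5 CG and was 51.2% G or C. CG reads the same on both strands, matches do not overlap, and the count describes the letters only.

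Sncg stood at 2 levels, high in 9 rats and low in 6 rats, and the same rats were high in frontal cortex, hippocampus and striatum. In frontal cortex, risperidone replicates 1 to 5 had Sncg at 5.67, 5.48, 5.80, 5.71 and 7.26, haloperidol replicates 1 to 5 at 7.42, 5.6, 6.13, 7.73 and 7.60, and vehicle replicates 1 to 5 at 7.38, 7.40, 7.99, 7.55 and 8.89. Risperidone replicates 1 to 4 and haloperidol replicates 2 and 3 were low, and all vehicle rats were high. In hippocampus, the values in the same order of rats were 6.89, 6.85, 7.03, 7.13 and 9.15 for risperidone, 9.61, 6.66, 7.03, 9.47 and 10.40 for haloperidol, and 9.67, 9.64, 10.53, 9.79 and 10.74 for vehicle. In striatum, they were 5.67, 5.95, 5.94, 5.92 and 7.69 for risperidone, 7.48, 6.23, 5.87, 7.37 and 8.49 for haloperidol, and 8.11, 7.84, 8.43, 7.21 and 8.02 for vehicle. The 6 low rats in frontal cortex were the 6 low rats in the other regions.

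**Figure D1:**
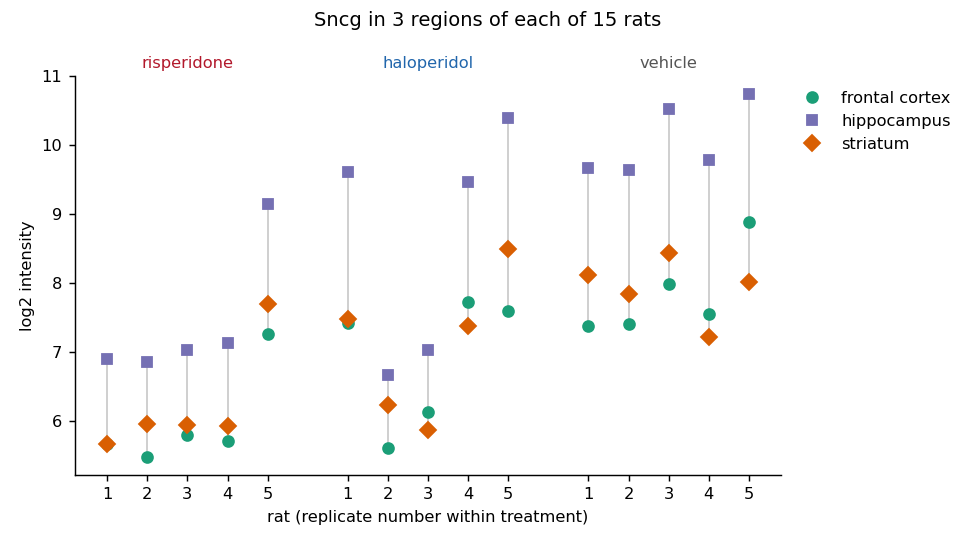
Log2 intensity of Sncg (vertical axis) in frontal cortex, hippocampus and striatum of each rat (horizontal axis, replicates 1 to 5 of risperidone, haloperidol and vehicle), with a grey line joining the 3 regions of a rat. Risperidone replicates 1 to 4 and haloperidol replicates 2 and 3 lie low in all 3 regions, and hippocampus is the highest region in every rat.

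The empty interval between the levels was widest in hippocampus, where the highest low rat was at 7.13 and the lowest high rat at 9.15, a gap of 2.02 or 4.06-fold. In frontal cortex, the gap lay between 6.13 and 7.26 (1.13, 2.19-fold). In striatum, it lay between 6.23 and 7.21 (0.99, 1.98-fold). The values that border each gap chose the members and carry no test. The low rats spanned 0.65 in frontal cortex, 0.47 in hippocampus and 0.56 in striatum, less than the gap in each region. The high rats spanned 1.63, 1.58 and 1.27 in the same regions, less than the gap in hippocampus but more than it in frontal cortex and striatum. On the linear scale, Sncg ran between 44.6 and 475.6 in frontal cortex, between 101.4 and 1709.0 in hippocampus and between 50.9 and 358.9 in striatum. In the low rats, Sncg was at most 69.9 in frontal cortex and 74.9 in striatum, under the lowest array medians there (89.9 and 87.9). In hippocampus, the low rats ran between 101.4 and 140.4, against array medians of 106.7 to 110.4. The part of this low signal in the width of the gaps was not tested.

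Most of the Sncg variance lay between rats. After each region was centred on its mean, 93.1% of the variance of Sncg lay between rats, against a median of 49.1% over the 18609 probe sets tested, and 99.5% of these had a smaller share. For Sncb, the share was 38.9% for 1371568_at and 32.5% for 1369924_at. The correlation between regions of a rat, fitted within treatment and region means, was 0.85 for Sncg and 0.226 over all probe sets tested. The largest gap between neighboring rats split the rats the same way in all 3 regions in 248 of 18609 probe sets. Of these, 67 had more than 1 rat on each side, and by the smallest of its 3 gaps Sncg was in place 12 among them. Of the 248, only Sncg set apart these 6 rats. Sncg was chosen for levels by rat that its regions share, so these standings describe that choice. The share between rats includes the differences between treatments.

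Mean Sncg levels were lower in drug-treated rats than in vehicle rats in each region. In hippocampus, Sncg averaged 7.41 ± 0.98 in risperidone rats and 10.07 ± 0.52 in vehicle rats (SD, n = 5 each), a difference of -2.66 (SE 0.49). In frontal cortex, it averaged 5.98 ± 0.72 in risperidone rats and 7.84 ± 0.64 in vehicle rats, a difference of -1.86 (SE 0.49). In striatum, it averaged 6.23 ± 0.82 in risperidone rats and 7.92 ± 0.45 in vehicle rats, a difference of -1.69 (SE 0.49). The risperidone and vehicle rats did not overlap in frontal cortex and hippocampus, where 3.4% and 0.113% of all probe sets tested were called, but they overlapped in striatum, where 3.65% were called. Called here means at least 1.2-fold with an adjusted p below 0.05, so the share called is not the share of probe sets without overlap. Nothing is read from these shares for Sncg, because its levels by rat chose it. Leaving out risperidone replicate 5, the only high risperidone rat, gave differences of -2.18 in frontal cortex, -3.10 in hippocampus and -2.05 in striatum. That rat was picked for its high level, so the larger differences without it follow from that choice.

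Haloperidol rats held both levels. Sncg averaged 6.90 ± 0.97 in haloperidol rats and 7.84 ± 0.64 in vehicle rats in frontal cortex, a difference of -0.95 (SE 0.49). The difference was -1.44 in hippocampus, where haloperidol rats averaged 8.63 ± 1.68 and vehicle rats 10.07 ± 0.52. It was -0.84 in striatum, where haloperidol rats averaged 7.09 ± 1.05 and vehicle rats 7.92 ± 0.45. The SD was larger in haloperidol than in vehicle rats in each region, and 3 haloperidol rats were high and 2 were low. Leaving out haloperidol replicate 2 gave -0.62 in frontal cortex and -0.95 in hippocampus, and leaving out haloperidol replicate 3 gave -0.53 in striatum. Replicates 2 and 3 were the low haloperidol rats, so the smaller differences without them follow from their level. Risperidone minus haloperidol was -0.91 in frontal cortex, -1.22 in hippocampus and -0.86 in striatum (SE 0.49 each). The SE of every Sncg drug comparison comes from a single spread that the fit shares over all groups. It does not follow the larger SD of haloperidol rats in hippocampus (1.68), nor the correlation of Sncg between regions of a rat (0.85, where the fit used 0.226). The comparisons with vehicle share the vehicle rats. Animal numbers in the labels run in blocks by treatment, 52 to 60 for risperidone, 41 to 50 for haloperidol and 32 to 36 for vehicle, so treatment and anything that follows the animal number cannot be told apart.

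Sncg was highest in hippocampus in all 15 rats, and its order in the other regions was not settled. Within rats, hippocampus minus frontal cortex was 1.80 ± 0.58 (SD, n = 15 rats, 0.90 to 2.80), higher in 15 of 15 rats (exact two-sided sign-flip permutation test, p = 6.10e-05, the smallest that 15 rats can give; adjusted p = 7.85e-05 over 9 tests). Striatum minus hippocampus was -1.63 ± 0.64 (-2.72 to -0.44), lower in 15 of 15 rats with the same p and adjusted p in the exact test. Striatum minus frontal cortex was 0.17 ± 0.48 (-0.87 to 0.89), higher in 11 of 15 rats (exact sign-flip test, p = 0.178, adjusted p = 0.20), and without vehicle replicate 5 it was 0.25 (adjusted p = 0.0412). The median shift of all probe sets over the same 15 rats was 0.26 for hippocampus minus frontal cortex, -0.32 for striatum minus hippocampus and -0.07 for striatum minus frontal cortex, so the hippocampal differences of Sncg were larger than that shift.

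In vehicle rats alone, hippocampal Sncg was 2.23 above frontal cortex (10.07 ± 0.52 against 7.84 ± 0.64, SE 0.43, adjusted p = 1.71e-05 from limma, called among 53.2% of all probe sets). Striatum was 2.15 below hippocampus (difference -2.15, 7.92 ± 0.45 in striatum against 10.07 ± 0.52 in hippocampus, adjusted p = 2.23e-05 from limma, called among 62.5%). Striatum and frontal cortex differed by 0.08 (95% interval -0.79 to 0.95, adjusted p = 0.879 from limma, with 46.1% of probe sets called). The fit used a correlation between regions of a rat of 0.226 for every probe set, while that of Sncg was 0.85. The SE and interval of Sncg here therefore do not follow its own correlation. The choice of Sncg used levels that the regions of a rat share, so differences of its drug effect between regions are also given with no test. The risperidone effect was 0.17 in striatum minus frontal cortex, -0.80 in hippocampus minus frontal cortex and 0.97 in striatum minus hippocampus. The haloperidol effect was 0.11, -0.49 and 0.60 in the same order. The part of the low signal of the low rats in frontal cortex and striatum in these differences was not tested.

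**Figure D2:**
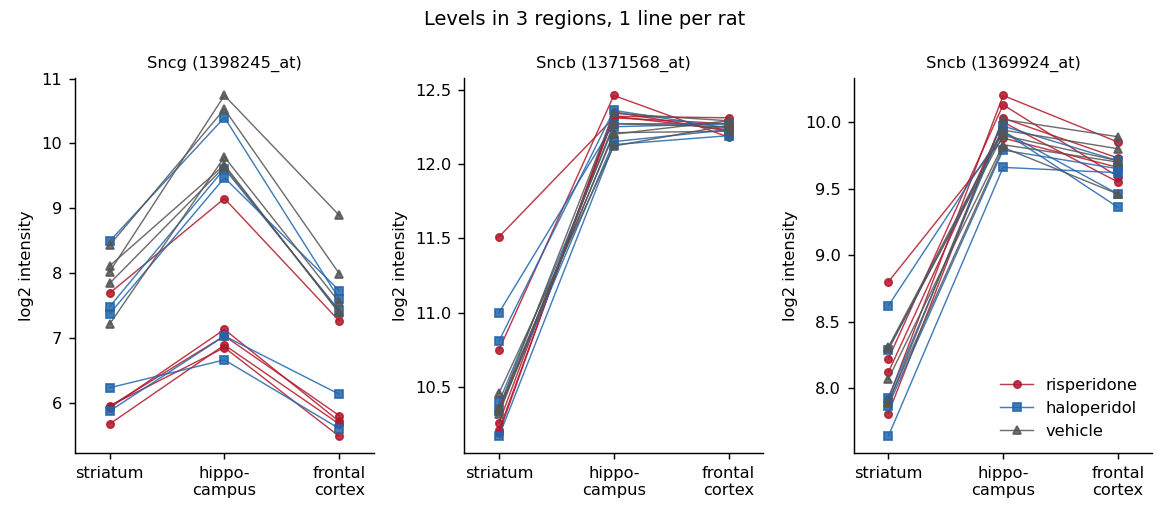
Log2 intensity (vertical axes, which differ between panels) of Sncg and of both Sncb probe sets in striatum, hippocampus and frontal cortex, with 1 line per rat and marks by treatment. Sncg peaks in hippocampus in all 15 rats at either level, while both Sncb probe sets are lowest in striatum in all 15 rats.

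Likeness to Sncg was measured over the 45 arrays as the mean absolute difference between profiles that were centred on the region mean and divided by their SD, with the other profile also turned over. It is a description over arrays that share rats. The nearest probe set with 1 gene was 1395857_at of Shld2, a subunit of the shieldin complex of DNA break repair, at a distance of 0.471 with the profile turned over, against a median distance of 1.02. The next were Pggt1b (0.630), which encodes a subunit of a protein prenylation enzyme, Gmfg (0.651, turned over), Ccnd2 (0.651), which encodes cyclin D2, Qdpr (0.662, turned over), which recycles tetrahydrobiopterin, Srebf2 (0.664), a transcription factor of sterol synthesis, Srgap2 (0.673) and Tent4b (0.678). With profiles centred on region and treatment, Shld2 was again nearest (0.541, against 0.625 for the next), but only 2 of the 8 were shared.

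Probe set 1395857_at of Shld2 ran against Sncg, and its range was narrow. Each of its values lay under the lowest array median of its region (linear 89.9 in frontal cortex, 106.7 in hippocampus and 87.9 in striatum). The part of this low signal in the likeness was not tested. In striatum, Shld2 was 6.28, 6.35, 6.16, 6.29 and 5.83 in risperidone replicates 1 to 5, 6.01, 6.38, 6.39, 6.12 and 5.55 in haloperidol replicates 1 to 5, and 6.03, 5.90, 5.76, 6.04 and 5.79 in vehicle replicates 1 to 5. In frontal cortex, the values in the same order were 6.35, 6.33, 6.12, 6.21 and 6.13 for risperidone, 6.02, 6.23, 6.17, 5.94 and 6.02 for haloperidol, and 5.90, 5.91, 5.75, 5.88 and 5.86 for vehicle. In hippocampus, they were 6.55, 6.11, 6.27, 6.43 and 6.0 for risperidone, 6.03, 6.33, 6.34, 6.24 and 5.74 for haloperidol, and 6.13, 6.13, 5.57, 6.23 and 5.87 for vehicle. In striatum, the 6 rats with the lowest Sncg had the 6 highest Shld2 values, while in frontal cortex risperidone replicate 5 (6.13) lay just above risperidone replicate 3 (6.12), and in hippocampus several rats with high Sncg lay above risperidone replicate 2 (6.11).

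**Figure D3:**
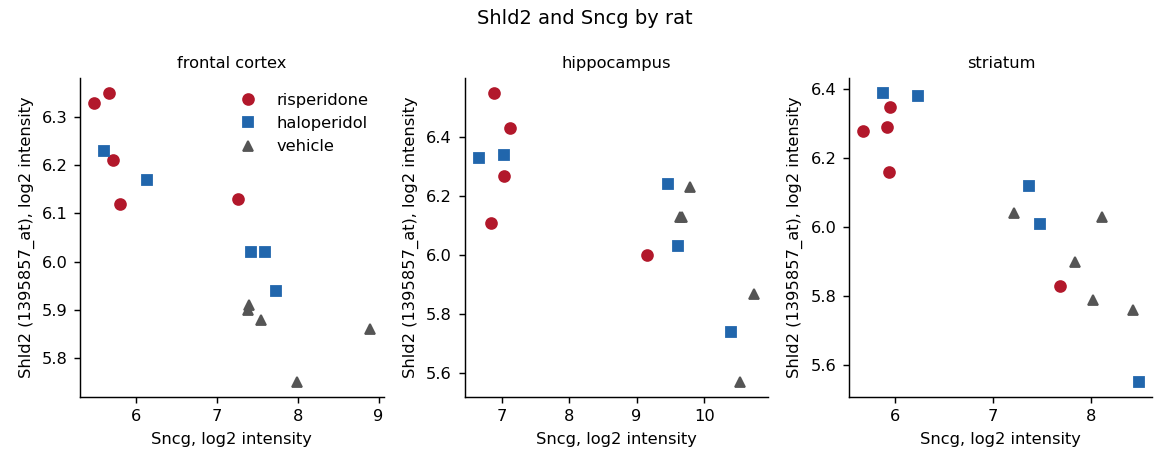
Log2 intensity of Shld2 probe set 1395857_at (vertical axes) against that of Sncg (horizontal axes) in frontal cortex, hippocampus and striatum, 1 point per rat marked by treatment, with axes that differ between panels. Rats with Sncg at 6.23 or below in striatum have Shld2 at 6.16 or above there.

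Shld2 lies near Sncg on chromosome 16, as the third gene with a probe set on one side in the order of the RefSeq genes. The other probe set of Shld2, 1383233_at, lay at 0.804 in the same direction as Sncg, with 3.13% of probe sets nearer, so the 2 probe sets of Shld2 went opposite ways. The other tested neighbors within 5 genes with a probe set on either side were Glud1, Syt15, Bmpr1a, Ldb3 and Wapl, and their distances were between 1.05 and 1.16, above the median of 1.02. The genes next to Sncg on each side, Fam25a and Mmrn2, and 2 farther ones, Npy4r and Opn4, were below the filter on mean intensity.

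Sncb was strongly expressed in frontal cortex and hippocampus and lower in striatum in every rat. In vehicle rats, probe set 1371568_at averaged 10.37 ± 0.06 in striatum and 12.26 ± 0.03 in frontal cortex (SD, n = 5), a difference of -1.89 (SE 0.13, adjusted p = 9.81e-17 from limma). Striatum minus hippocampus was -1.86 (10.37 ± 0.06 in striatum and 12.23 ± 0.08 in hippocampus, SE 0.13, adjusted p = 8.92e-17 from limma). The second probe set, 1369924_at, gave -1.62 for striatum minus frontal cortex and -1.81 for striatum minus hippocampus, both called, as were those of 1371568_at. In these comparisons 46.1% and 62.5% of all probe sets were called, 27.8% and 53.9% as lower. The median difference of all probe sets in vehicle rats was -0.06 and -0.30 in the same order. Over the 15 rats, striatum minus frontal cortex was -1.75 ± 0.36 for 1371568_at and -1.54 ± 0.38 for 1369924_at, lower in 15 of 15 rats for each (exact sign-flip permutation test, p = 6.10e-05, adjusted p = 7.85e-05). Striatum minus hippocampus was -1.77 ± 0.35 and -1.82 ± 0.33 for these probe sets in the same order, lower in 15 of 15 rats with the same exact p.

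Hippocampus and frontal cortex were close for Sncb, and their order depended on the probe set and the scaling. For 1371568_at, hippocampus minus frontal cortex was 0.02 ± 0.10 over 15 rats, higher in 9 of 15 (exact sign-flip test, p = 0.451, adjusted p = 0.451), and -0.03 in vehicle rats (95% interval -0.29 to 0.22, adjusted p = 0.815 from limma). With each array centred on its median, the difference over 15 rats was -0.23 (adjusted p = 1.57e-04) and that in vehicle rats was -0.30 (adjusted p = 0.0468). For 1369924_at, it was 0.29 ± 0.16, higher in 15 of 15 rats (exact sign-flip test, p = 6.10e-05, adjusted p = 7.85e-05), near the shift of 0.26 of all probe sets, and 0.04 with arrays centred on their median (adjusted p = 0.411). In vehicle rats, 1369924_at gave 0.19 (adjusted p = 0.172 from limma), which turned to -0.07 with arrays centred on their median and to -0.02 with quantile normalization.

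No drug comparison of Sncb was called. In frontal cortex, 1371568_at was 12.31, 12.22, 12.27, 12.23 and 12.18 in risperidone replicates 1 to 5, 12.23, 12.19, 12.24, 12.27 and 12.27 in haloperidol replicates 1 to 5, and 12.29, 12.22, 12.29, 12.26 and 12.25 in vehicle replicates 1 to 5. All groups overlapped, and 0.177% of all probe sets were called between haloperidol and vehicle and 0.768% between risperidone and haloperidol. The risperidone minus vehicle difference was -0.02 (95% interval -0.31 to 0.27, adjusted p = 0.956 from limma). In hippocampus, the values in the same order were 12.32, 12.35, 12.31, 12.32 and 12.46 for risperidone, 12.15, 12.13, 12.36, 12.25 and 12.27 for haloperidol, and 12.34, 12.21, 12.20, 12.12 and 12.27 for vehicle. Risperidone minus vehicle was 0.12 there (-0.16 to 0.41, adjusted p = 0.692 from limma), and the groups overlapped.

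In striatum, 1371568_at was 10.21, 10.19, 11.51, 10.26 and 10.75 in risperidone replicates 1 to 5, 10.34, 10.17, 10.81, 10.40 and 11.00 in haloperidol replicates 1 to 5, and 10.36, 10.34, 10.36, 10.46 and 10.32 in vehicle replicates 1 to 5. Risperidone replicates 3 and 5 and haloperidol replicates 3 and 5 stood above the other 11 rats, and the remaining drug-treated rats lay around the vehicle rats. Risperidone minus vehicle was 0.22 (95% interval -0.07 to 0.51, adjusted p = 0.365 from limma), and it was -0.01 without risperidone replicate 3. Haloperidol minus vehicle was 0.18 (-0.11 to 0.46, adjusted p = 0.563 from limma, with 0.339% of all called), and it was 0.064 without haloperidol replicate 5 and 0.11 without haloperidol replicate 3. Risperidone minus haloperidol was 0.04 (adjusted p = 1.00 from limma, with 0.0161% of all called). Over the 9 treatment comparisons, differences of 1371568_at ran between -0.02 and 0.22, with adjusted p between 0.365 and 1.00, 0 called and 0 with an unadjusted p under 0.05. For 1369924_at, they ran between -0.15 and 0.19, with adjusted p between 0.629 and 1.00, 0 called and 0 with an unadjusted p under 0.05. For each probe set, 0 of the 6 differences of a drug effect between regions were called in limma, and 0 had an unadjusted p under 0.05. Over all probe sets, these comparisons called 2.94%, 1.32% and 1.66% for risperidone (striatum minus frontal cortex, hippocampus minus frontal cortex, striatum minus hippocampus) and 0.0269%, 0% and 0% for haloperidol.

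**Figure D4:**
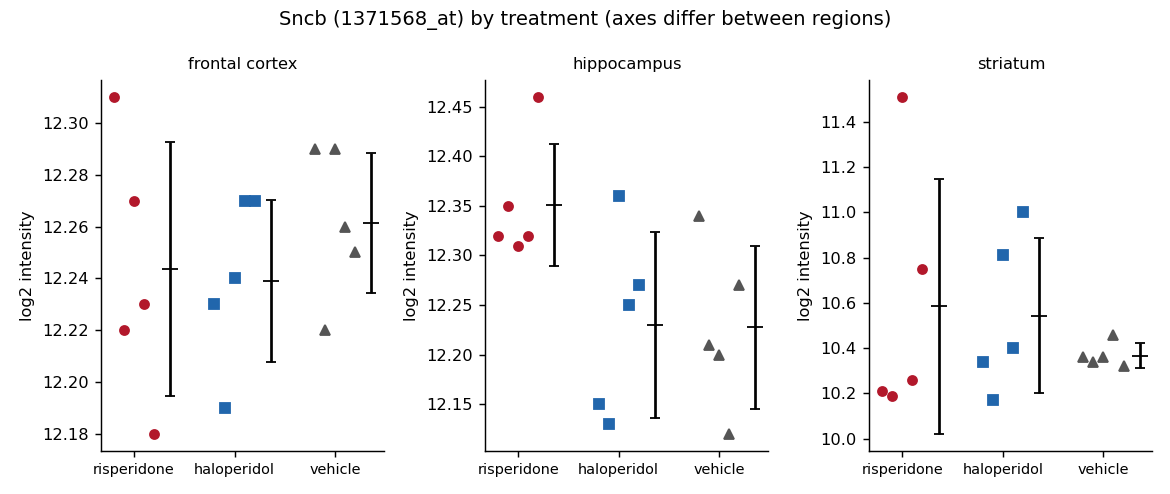
Log2 intensity of Sncb probe set 1371568_at (vertical axes, which differ between regions) by treatment, 1 point per rat, with the mean and SD of 5 rats beside the points. In striatum, the vehicle rats lie between 10.32 and 10.46, and the drug-treated rats spread between 10.17 and 11.51.

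The 4 striatum arrays that were highest in Sncb were also the 4 highest in pyramidal neuron markers. These markers, of which 9 of 10 were tested, averaged 6.06 in striatum, against 8.93 in frontal cortex and 9.35 in hippocampus. Their mean stood 1.68 above the striatum mean in risperidone replicate 3, 0.79 in haloperidol replicate 5, 0.56 in haloperidol replicate 3 and 0.42 in risperidone replicate 5, while the other 11 striatum arrays lay between -0.60 and -0.01. Their summed linear intensity ran between 513.8 and 4017.1 in risperidone rats, between 570.4 and 2360.4 in haloperidol rats and between 497.2 and 788.3 in vehicle rats. In risperidone replicate 3, striatal projection neuron markers stood at -0.91 from the striatum mean. Without the striatum arrays of risperidone replicate 3 and haloperidol replicate 5, which were left out after their values were seen, risperidone minus vehicle was -0.01 (adjusted p = 0.964 from limma) and risperidone minus haloperidol was -0.08, against 0.04 with them. The part of these markers in the Sncb levels was not tested. The striatal Sncg of risperidone replicate 3 (5.94) was among the low values, and that of haloperidol replicate 5 (8.49) was the highest.

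**Figure D5:**
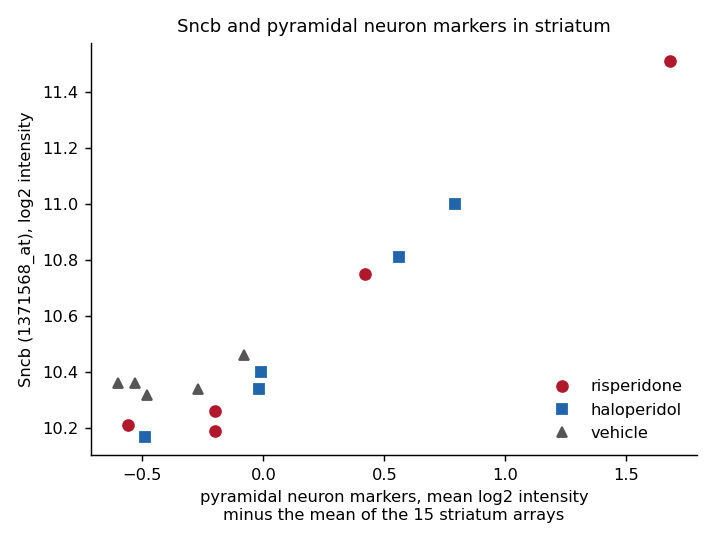
Log2 intensity of Sncb probe set 1371568_at (vertical axis) against the mean of pyramidal neuron markers relative to the 15 striatum arrays (horizontal axis, log2), 1 point per striatum array marked by treatment. The 4 arrays with marker means of 0.42 or more have Sncb at 10.75 or above, and the others lie at 10.46 or below.

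The profiles nearest to 1371568_at of Sncb were Car10 (0.232), a carbonic anhydrase-related protein, Vsnl1 (0.279), a neuronal calcium sensor, and Camk2g (0.298), a subunit of the calcium- and calmodulin-dependent kinase, all in the same direction, against a median distance of 0.947. The second Sncb probe set lay at 0.496, with 117 other probe sets nearer. On chromosome 17, the nearest genes with a probe set on either side, Tspan17 (0.497 and 0.622 for its probe sets) and Gprin1 (0.587), lay at distances under the median, with 0.645%, 2.15% and 1.45% of probe sets nearer. The other tested genes within 5 on either side, Unc5a, Uimc1, Zfp346, Cdhr2, Rnf44, Faf2 and Cltb, lay between 0.821 and 1.03. The SD of 1371568_at over 15 rats was 0.37 in striatum, 0.036 in frontal cortex and 0.095 in hippocampus, so these distances rest mostly on striatum. The part in them of the 4 striatum arrays highest in pyramidal neuron markers was not tested.

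Genes that bind synucleins, process them or act with them at the vesicle were read as a list, of which 21 of 24 were tested. In vehicle rats, 1 was higher and 12 were lower in striatum than in frontal cortex, where 18.3% of all probe sets were higher and 27.8% lower. The list median was -0.39, against -0.06 over all probe sets, and the counts were 3 and 11 with quantile normalization. Syn1 and Syn2, the synapsins that tether synaptic vesicles, differed by -1.81 and -1.41, and Stx1a, a syntaxin of the fusion complex, by -3.74 (7.13 ± 0.22 in striatum and 10.87 ± 0.15 in frontal cortex, adjusted p = 7.19e-18 from limma). Rab3a, a small GTPase of synaptic vesicles, differed by -0.59. Sncaip, which encodes the synuclein-binding protein synphilin, was the 1 that was higher (0.40, adjusted p = 9.85e-04). Between striatum and hippocampus, 0 were higher and 17 were lower, where 8.59% of all were higher and 53.9% lower, and the list median was -0.53 against -0.30. Syn2 differed by -1.77, Syn1 by -1.72, Uchl1, a deubiquitinating enzyme, by -0.96 and Vamp2, a vesicle protein of the fusion complex, by -0.89. The counts of higher and lower genes were 2 and 10 with each array centred on its median or with quantile normalization. Between hippocampus and frontal cortex, 10 were higher and 1, Stx1a, was lower (median 0.26 against 0.25), where 46.7% of all were higher and 6.48% lower. Napa, which encodes the adaptor of Nsf, was 0.58 higher and Park7, a protein of the oxidative stress response, 0.47 higher, the second not called with arrays centred on their median. Uchl1 (0.40) and Csnk2a1 (0.27), a subunit of casein kinase, were called in neither that scaling nor quantile normalization, and Csnk2a1 was not called without vehicle replicate 2 (0.25). With arrays centred on their median 1 was higher and 6 were lower, and with quantile normalization 2 and 6.

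Of these 21 genes, Sncaip rose in frontal cortex after risperidone, and 3.4% of all probe sets were called there. It was 6.54, 7.07, 6.84, 6.38 and 6.92 in risperidone replicates 1 to 5 and 6.11, 6.27, 6.22, 6.02 and 6.13 in vehicle replicates 1 to 5, and the groups did not overlap. The difference was 0.60 (SE 0.12, adjusted p = 0.00280 from limma), and it was called without each rat in turn (0.52 to 0.69). Its vehicle values lay under the lowest array median of frontal cortex (linear 89.9), a low signal. With the filter at the 60th percentile, 0 genes of the list were called there. Nsf, the ATPase that takes apart the fusion complex, fell by 0.27 in striatum after risperidone (SE 0.08, adjusted p = 0.0307 from limma, with 3.65% of all called), with 11.77, 11.98, 11.54, 11.68 and 11.78 in risperidone replicates 1 to 5 and 11.97, 12, 12.08, 12.17 and 11.91 in vehicle replicates 1 to 5. Leaving out any of 5 rats ended the call of Nsf (largest adjusted p 0.152, with risperidone replicate 3 left out), as did quantile normalization (adjusted p = 0.0537), under which 1 other gene of the list was higher. The lowest value of Nsf was that of risperidone replicate 3, the striatum array highest in pyramidal neuron markers (1.68) and lowest in striatal projection neuron markers (-0.91), and without it and haloperidol replicate 5 in striatum the difference was -0.24 (adjusted p = 0.130 from limma). Tppp, a tubulin-binding protein that interacts with synucleins, had a risperidone effect 0.34 higher in striatum than in frontal cortex (SE 0.09, adjusted p = 0.0309 from limma, with 2.94% of all called), a call that ended when any of 7 rats was left out (largest adjusted p 0.127, with risperidone replicate 3 left out) and with no rat block (adjusted p = 0.109). The 4 striatum arrays highest in Tppp, risperidone replicates 3 (11.95) and 5 (11.78) and haloperidol replicates 3 (11.94) and 5 (11.83), were the 4 highest in pyramidal neuron markers. Without the striatum arrays of risperidone replicate 3 and haloperidol replicate 5 the difference was 0.28 (adjusted p = 0.0817 from limma). The part of these markers in the values of Nsf and Tppp was not tested. In hippocampus after risperidone 0 of the 21 were called (1 at an unadjusted p under 0.05 in limma, with 0.113% of all called). After haloperidol, 0 were called in each region, with 2, 0 and 6 at an unadjusted p under 0.05 in frontal cortex, hippocampus and striatum, where 0.177%, 0% and 0.339% of all probe sets were called.

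Markers of the cortical interneurons that make Sncg or cholecystokinin, and of their relatives, were tested for 9 of 14 genes. In vehicle rats, hippocampus had 5 higher and 3 lower than frontal cortex, striatum had 2 higher and 3 lower than frontal cortex, and striatum had 2 higher and 6 lower than hippocampus. Over all probe sets, 46.7% were higher and 6.48% lower, 18.3% higher and 27.8% lower, and 8.59% higher and 53.9% lower in the same order. With arrays centred on their median, these counts were 2 and 3, 2 and 3, and 3 and 5 in the same order, and with quantile normalization they were 3 and 3, 3 and 2, and 3 and 4. By smallest p, hippocampus minus frontal cortex was 3.27 for Prox1, a transcription factor that hippocampal granule cells also make, -1.95 for Lamp5, a membrane protein of neurogliaform cells, 1.10 for Ndnf and 0.52 for Cnr1, the cannabinoid receptor, which was not called with arrays centred on their median. Striatum minus frontal cortex was -5.35 for Vip, -4.53 for Cck, 0.85 for Cnr1 and -0.36 for Lamp5, the last not called with quantile normalization. Striatum minus hippocampus was -2.91 for Prox1, 1.59 for Lamp5, -4.07 for Vip and -3.62 for Cck. The values of Cck and Vip in hippocampus and frontal cortex are added after they were seen. Cck, which encodes cholecystokinin, was at 12.17 ± 0.22 in hippocampus and 13.08 ± 0.09 in frontal cortex (SD; difference -0.91, adjusted p = 0.0239 from limma). Vip, a neuropeptide gene, differed by -1.29 between hippocampus and frontal cortex (SE 0.34, adjusted p = 9.59e-04 from limma). Cck, Vip and Lamp5 were thus the 3 genes called lower in hippocampus than in frontal cortex, while Sncg was higher. The 5 genes called higher there went in the direction of Sncg.

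After risperidone, Calb2 and Ndnf, 2 of the 9 genes tested, rose in frontal cortex, where 3.4% of all probe sets were called. Calb2, which encodes calretinin, was 7.49, 9.47, 7.76, 7.55 and 9.21 in risperidone replicates 1 to 5 and 7.30, 6.96, 7.24, 7.29 and 7.19 in vehicle replicates 1 to 5 (difference 1.10, SE 0.26, adjusted p = 0.0110 from limma). Without risperidone replicate 2 it was 0.81 (adjusted p = 0.0551). Ndnf, a secreted factor of layer 1 interneurons, differed by 0.80 (SE 0.25, adjusted p = 0.0456 from limma), and leaving out any of 11 rats ended this call (0.48, adjusted p = 0.222, with risperidone replicate 2 left out). Olfactory bulb markers, of which 5 of 9 were tested and which include Calb2, stood 1.88 and 1.60 above the frontal cortex mean in risperidone replicates 2 and 5 and 0.93 above it in haloperidol replicate 5, and the other 12 frontal cortex arrays lay between -0.72 and 0.11. Their summed linear intensity ran between 785.8 and 4368.0 in risperidone rats, between 656.6 and 1980.0 in haloperidol rats and between 581.5 and 746.0 in vehicle rats. Their part in these rises, and in that of Sncaip, was not tested. Sncg in frontal cortex was low in risperidone replicate 2 (5.48) and high in risperidone replicate 5 (7.26).

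Reln, which encodes the secreted protein reelin, fell in striatum after risperidone, with 9.34, 9.64, 8.86, 9.54 and 9.54 in risperidone replicates 1 to 5 and 10.11, 9.81, 10.04, 10.12 and 9.83 in vehicle replicates 1 to 5 (difference -0.60, SE 0.16, adjusted p = 0.0194 from limma), 1 call among the 9 genes where 3.65% of all probe sets were called. The groups did not overlap, and leaving out any of 3 rats ended the call (largest adjusted p 0.124, with risperidone replicate 3 left out). The lowest value was that of risperidone replicate 3, which stood apart in pyramidal (1.68) and striatal projection neuron markers (-0.91). Without the striatum arrays of that rat and of haloperidol replicate 5, the difference was -0.48 (adjusted p = 0.108 from limma), and the part of these markers was not tested. The risperidone effect on Reln was lower in striatum than in frontal cortex (-0.87, adjusted p = 0.0147) and than in hippocampus (-0.79, adjusted p = 0.0273). The second of these ended when any of 5 rats was left out (largest adjusted p 0.0985), and both ended with no rat block (adjusted p = 0.0674 and 0.113). Without those striatum arrays, these differences were -0.75 (adjusted p = 0.0348 from limma) and -0.67 (adjusted p = 0.0797), so the second call ended. In frontal cortex, Reln was 10.68 and 10.38 in risperidone replicates 2 and 5, the arrays highest in olfactory bulb markers. In hippocampus after risperidone, and in hippocampus and striatum after haloperidol, 0 of the 9 markers were called in limma (0, 0 and 2 at an unadjusted p under 0.05), where 0.113%, 0% and 0.339% of all probe sets were called. In frontal cortex after haloperidol, 0 were called in limma (1 at an unadjusted p under 0.05), where 0.177% of all were called. Of 9 monoamine neuron markers, which Sncg can accompany in brainstem, Ddc and Slc18a2 were tested and 0 were called after either drug (1 at an unadjusted p under 0.05, in hippocampus after risperidone). Ddc was higher in striatum than in frontal cortex in vehicle rats (0.46, adjusted p = 0.00199 from limma). Against hippocampus, striatum was 0.31 higher for Ddc (adjusted p = 0.0285), a call that ended with no rat block or when any of 3 vehicle rats was left out, and differed by -0.34 for Slc18a2 (adjusted p = 5.52e-04), a call that ended with arrays centred on their median or with quantile normalization.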

How the data were processed

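Rat 230 2.0 arrays of 45 samples were analysed. The authors deposited linear intensity values after Robust Multi-array Average (RMA), made in R 2.7.2 per the submitters' processing notes. Whether RMA was run by region is not stated there or in the methods. Array medians were 89.9 to 93.1 in frontal cortex, 107 to 110.4 in hippocampus and 87.9 to 92.1 in striatum, so region differences are given beside the shift of all probe sets. The number of arrays limits the precision. Symbols came from the platform annotation. Of 31099 probe sets, 57 controls and those with a mean log2 below the 40th percentile were left out, and 18609 were tested, of which 14116 carry 1 gene, 306 several and 4187 none. All 3 synuclein probe sets passed. A single fit in limma 3.58.1 (R 4.3.3, and version 1.17.8 of data.table) had 9 means of region and treatment and a random effect of rat (correlation 0.226 by consensus, 39.9 degrees of freedom), with Benjamini-Hochberg adjustment within each of 18 comparisons. Differences within rats used exact sign-flip tests. Each list gene was read by its probe set with the highest mean, and in each comparison described, list genes are named for at most 4 of those called, by smallest p, other names being chosen after their values were seen. The 8 nearest profiles were named for Sncg and the 3 nearest for Sncb. The limma method was tested on simulated data. The members, lists and tests were chosen with earlier results of these data known. Alternatives were other filters, scalings, blocks and moderations, and leaving out each rat. No 2 arrays shared values (99.9% or more of probe sets differed).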

Additional observations from a re-analysis of the deposited data

Results flagged for a closer look

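Dixon's ratio is the gap to the nearest rat divided by the range of the group (limit 0.71). It was taken on log2 values rounded as printed here. Of 27 groups of 5 rats (3 probe sets, 3 regions, 3 treatments), 5 held a rat set far apart from the others by this ratio. By chance, about 1 group in 20 is set apart. Risperidone replicate 5 was high for Sncg in frontal cortex (ratio 0.820), hippocampus (0.878) and striatum (0.861), and these 3 values come from 1 rat. Sncg was chosen for such high and low levels by rat, so these ratios describe that choice, and the chance rate does not apply to them. The same rat was high for Sncb probe set 1371568_at in hippocampus (0.733). Vehicle replicate 4 was high for 1371568_at in striatum (0.714), at 10.46 among values of 10.32 to 10.36. On unrounded values its ratio falls below 0.71, so that group is set apart through rounding only.

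Differences of the risperidone effect between regions were called for list genes. For Tppp it was 0.339 in striatum minus frontal cortex, for Reln -0.869 in striatum minus frontal cortex and -0.790 in striatum minus hippocampus.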

How the results depend on the processing

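The larger hippocampal level of Sncg and the lower striatal level of Sncb kept their direction and call under every alternative run, the 15 rats left out in turn included. No drug comparison of Sncb was called under any of them. Equal replicate numbers did not pair rats across treatments: deviations of same-numbered rats correlated between -0.38 and 0.55, with 12 of 45 over 0.1. With the replicate number as a replicate block, risperidone minus vehicle for Sncg in hippocampus was -2.66 as before, and no call of a synuclein or list count changed by over 1.5 times.

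Some uncalled differences of the synuclein probe sets changed sign. With quantile normalization, haloperidol minus vehicle for Sncb in frontal cortex was 7.73e-05 and risperidone minus haloperidol there -0.017. With arrays centred on their median, risperidone minus haloperidol for Sncb in frontal cortex was -0.014, and hippocampus minus frontal cortex for Sncb was -0.23 over 15 rats. In vehicle rats the latter kept its sign and went from -0.03 to -0.30 (now called). For 1369924_at in vehicle rats, hippocampus minus frontal cortex went from 0.19 to -0.074 (-0.024 with quantile normalization). Without the 2 striatum arrays highest in pyramidal neuron markers, an alternative chosen after the data were seen, Sncb gave -0.013 for risperidone minus vehicle and -0.080 for risperidone minus haloperidol in striatum and -0.14 for the risperidone effect in striatum minus hippocampus, and the haloperidol effect on Sncg in striatum minus frontal cortex was -0.12.
Leaving out each rat gave these ranges for Sncb: risperidone minus haloperidol -0.012 to 0.020 in frontal cortex and -0.19 to 0.15 in striatum, haloperidol minus vehicle in hippocampus -0.029 to 0.031, risperidone minus vehicle in striatum -0.013 to 0.32, the risperidone effect in striatum minus hippocampus -0.15 to 0.19 and the haloperidol effect in hippocampus minus frontal cortex -0.0067 to 0.047. For Sncg, they were -0.082 to 0.32 for striatum minus frontal cortex in vehicle rats, 0.12 to 0.25 for the same over all rats, and -0.069 to 0.33 (risperidone) and -0.12 to 0.27 (haloperidol) for drug effects in striatum minus frontal cortex.

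Counts of called list genes moved by over 1.5 times as follows. For synuclein partners after risperidone, the count was 1 in frontal cortex and 0 with the filter at the 60th percentile, and 1 in striatum, 2 with no filter and 0 from the arrays of that region alone or without the 2 striatum arrays (0 to 2 without each rat). For hippocampus minus frontal cortex, it was 11 and 7 with arrays centred on their median. For interneuron markers after risperidone in frontal cortex, it was 2 (0 to 2 without each rat), 1 with no filter, the stricter filter, median centring or quantile normalization, and 0 from the arrays of that region alone. In striatum after risperidone it was 1 (0 to 3) and 0 from the arrays of that region alone or without the 2 striatum arrays, and after haloperidol 0 (0 to 1). In vehicle rats it was 5 for striatum minus frontal cortex, 8 with no filter, and 8 for hippocampus minus frontal cortex, 5 with median centring. For monoamine markers in vehicle rats, striatum minus hippocampus gave 2 (1 to 2 without each rat), 5 with no filter, 0 with the stricter filter and 1 with median centring, quantile normalization or no replicate block, striatum minus frontal cortex gave 1, 2 with no filter and 0 with the stricter filter, and hippocampus minus frontal cortex gave 0 (0 to 1), 2 with no filter. After risperidone in frontal cortex it was 0, and 1 with no filter. The cause of these moves was not tested. A single probe set measured Sncg, and the region shift of all probe sets limits differences under about 0.3 between hippocampus and the other regions.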
